A study of Mus musculus with 3 samples.

Results

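The genes of the cytosolic ribosomal proteins were examined in C2C12 cells in which the long non-coding RNA Linc-RAM had been raised or lowered. Members were taken by name: symbols of Rpl or Rps and a number with any letters after it, together with Rplp0 to Rplp2 and Rpsa, leaving out the ribosomal S6 kinases. This gave 85 of the 22068 genes in the files, with 52 genes of the large subunit and 33 of the small subunit. C2C12 is a mouse myoblast line that fuses into myotubes when serum is withdrawn. The stable lines were made with lentivirus and carried Linc-RAM (overexpression), a short hairpin RNA against Linc-RAM (knockdown) or the empty vector (control), and all had been kept for 12 h in differentiation medium with 2% horse serum. Polyadenylated RNA of each line was sequenced as 1 library, so no difference between lines has a replicate check, and overexpression and knockdown are set against the same control library. The labels do not say which hairpin was used, nor whether a line is a pool or a clone.

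A ribosome is built from a small subunit, which holds the mRNA and decodes it, and a large subunit, which joins amino acids, and each subunit carries its own set of proteins on a core of ribosomal RNA. Most of the proteins are needed in equal numbers, and their mRNAs are among the most abundant in growing cells. In mammals most of these mRNAs start with a C followed by a pyrimidine tract, through which their translation is coupled to growth signals. Their abundant mRNAs have also been copied back into the genome many times as intronless, mostly silent processed pseudogenes, so that a sequenced fragment of the mRNA often matches several places.

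Values are RPKM, the reads of a gene per kilobase of its length and per 1000000 reads of the library, which allows levels of genes of different length to be compared. The read totals behind the values were recovered from the RPKM steps of weakly expressed genes as 2105513 for overexpression, 1878146 for knockdown and 5130481 for control, so that the overexpression and knockdown libraries had 41.0% and 36.6% of the depth of the control. Linc-RAM, listed as 2310015B20Rik, stood at 1.07 RPKM with overexpression, which is 1 read, and at 0 with knockdown and in the control, so its values are no check of the labels. The 8 myoblast markers were found in each library (Des, the muscle intermediate filament desmin, stood at 386 RPKM with overexpression, 145 with knockdown and 291 in the control), whereas 3 of 6 endothelial, 4 of 6 immune, 3 of 5 neuronal and 5 of 6 epithelial markers were listed at 0 in every library. The myoblast markers themselves had a median log2 ratio of 0.99 for overexpression over control, with 8 of 8 above the control. For knockdown over control the median was -0.15, with 3 of 8 above the control. Among those 3 was Pax7, at 2.78 RPKM with overexpression, 5.36 with knockdown and 0.228 (5 reads) in the control. The part of the myoblast markers in the differences given below was not tested.

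Ribosomal protein mRNAs were found at very unequal levels. Over all 85 members the median was 20.1 RPKM with overexpression, 16.8 with knockdown and 19.4 in the control, against 0.466, 0.477 and 0.443 over all genes in the files. The members together made up 3.73% of the summed RPKM with overexpression, 3.40% with knockdown and 3.50% in the control. Among members above 0, the standard deviation of log2 RPKM was 2.14, 2.40 and 2.36 in the overexpression, knockdown and control libraries, close to the 2.22, 2.15 and 2.53 over all genes above 0. In the control 51 members were at or above 10 RPKM, 24 were between 0 and 10, and 10 were listed at 0.

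The highest member was Rpl41, which encodes a very short basic peptide of the large subunit, at 2242.5 RPKM with overexpression, 1775 with knockdown and 1939.6 in the control. Next came Rplp1, a protein of the stalk that recruits translation factors to the large subunit, at 546 RPKM with overexpression, 462 with knockdown and 542 in the control. Its stalk partner Rplp0 stood at 251, 204 and 190 RPKM in the same order of lines. The third stalk gene, Rplp2, was far below both at 0 RPKM with overexpression, 2.41 with knockdown and 3.98 in the control, and in the ribosome the stalk holds the products of all of these genes.

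Further large subunit genes completed the top group. Rpl8, which lies near the catalytic centre, stood at 242 RPKM with overexpression, 222 with knockdown and 228 in the control. Rpl15 stood at 170, 179 and 190 RPKM in these libraries, and Rpl10, a protein that joins the subunit late in its assembly, at 175, 170.1 and 138. These genes differed little between lines when set against the range between members. Rpl36al, a near copy of Rpl36a, stood at 147 RPKM with overexpression, 150.4 with knockdown and 175 in the control, whereas Rpl36a itself stood at 17.5, 6.53 and 5.98. In the small subunit Rps6, the target of the S6 kinases, was highest at 162 RPKM with overexpression, 177 with knockdown and 154 in the control. By the mean Rps15 came next, at 123, 99.96 and 88.9 RPKM, although with knockdown Rpsa stood above it at 100.4 RPKM.

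**Figure D1:**
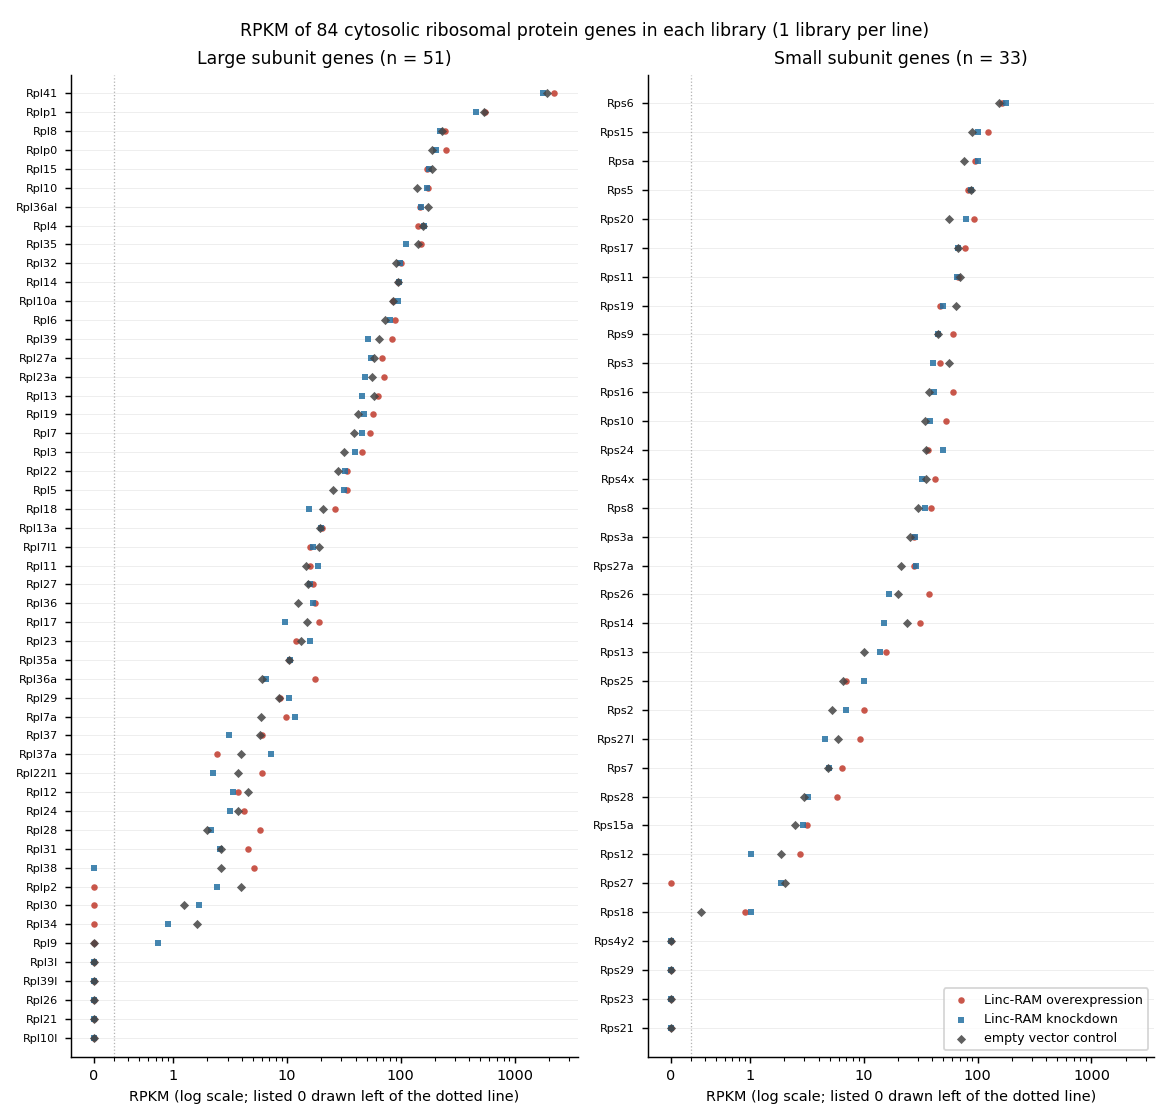
RPKM (horizontal, log scale) of large subunit genes (left, n = 51) and small subunit genes (right, n = 33), ordered by mean, in the overexpression (circles), knockdown (squares) and control (diamonds) library; values listed as 0 are drawn left of the dotted line, and 1 large subunit gene is not drawn. The 3 libraries lie close together for most genes, while genes of the same subunit run from 0 to 2242.5 RPKM, and 9 genes are at 0 in every library.

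The median level was lower over large than over small subunit genes in each library. Large subunit genes had a median of 17.5 RPKM with overexpression, 16.4 with knockdown and 15.1 in the control. Small subunit genes had medians of 31.0, 28.2 and 23.8 RPKM in these libraries. The quartiles overlapped widely, running from 3.72 to 66.4 RPKM for the large and from 2.98 to 56.3 RPKM for the small subunit in the control, and the difference of the medians was not tested. In sum, over more genes and with Rpl41 among them, the order was reversed: the large subunit genes came to 5172 RPKM with overexpression, 4399 with knockdown and 4643 in the control, and the small subunit genes to 1269.5, 1147 and 1069.8 RPKM. At the low end, Rps18 stood at 0.906 RPKM with overexpression, 1.02 with knockdown and 0.372 in the control, which was 1 read in each library.

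Members listed at 0 were 14 with overexpression, 10 with knockdown and 10 in the control, or 16.5%, 11.8% and 11.8% of members, against 44.2%, 44.6% and 41.2% of all genes. In every library 9 members were at 0, of which 5 belong to the large subunit (Rpl10l, Rpl21, Rpl26, Rpl39l and Rpl3l) and 4 to the small subunit (Rps21, Rps23, Rps29 and Rps4y2). Counting genes at 0 in at least 1 library, there were 15, with 10 of the large and 5 of the small subunit. Rpl10l and Rpl39l are paralogs known mainly from the male germ line in mice, and Rpl3l replaces Rpl3 in mature striated muscle. Rpl21, Rpl26, Rps21, Rps23 and Rps29 have no such paralog among the members and encode standard parts of the ribosome in every cell, so their 0 is a listed value and cannot be read as absence of the mRNA.

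The remaining 6 were at 0 in some libraries and low in the others. Rpl9 was listed at 0 with overexpression, 0.734 RPKM (1 read) with knockdown and 0 in the control. Rpl30 had 0, 1.70 and 1.25 RPKM, Rpl34 had 0, 0.892 and 1.63 RPKM, and Rps27 had 0, 1.85 and 2.03 RPKM in the overexpression, knockdown and control libraries. Rpl38 had 5.15 RPKM with overexpression, 0 with knockdown and 2.64 in the control. With Rplp2, given above, these genes had at most 9 recovered reads in a library, which are lower estimates of their reads.

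Paralogs were set beside their parent genes. Rpl3l was listed at 0 in each library, and Rpl3 stood at 45.7 RPKM with overexpression, 39.9 with knockdown and 31.9 in the control. Rpl10l and Rpl39l were likewise at 0, beside the abundant Rpl10 (above) and 83.2, 51.4 and 64.3 RPKM for Rpl39. Rps4y2 was at 0, and its X-linked relative Rps4x stood at 42.3 RPKM with overexpression, 32.2 with knockdown and 34.9 in the control. As for the standard members at 0, the value of these paralogs is a listed one. Rpl7l1, a relative of an assembly factor of the yeast large subunit, stood at 15.9, 16.8 and 18.9 RPKM beside 53.4, 45.6 and 38.6 for Rpl7. Rpl22l1 stood at 5.97, 2.23 and 3.68 RPKM beside 33.8, 32.6 and 28.1 for Rpl22. In the remaining pairs the form named as a paralog had the higher listed value. Rpl36al exceeded Rpl36a (above). Rps27l, a p53 target, had 9.21 RPKM with overexpression, 4.59 with knockdown and 5.88 in the control, where Rps27 had 0, 1.85 and 2.03. The order within these pairs is one of listed values, and the genes of a pair differ in how much of their mRNA is unique in the genome (below).

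How reads with several matches were counted is not given in the sources used here. The mRNAs were therefore cut into all windows of 50 bases, and each window was looked up in the mm9 genome. A window counted as found at the gene alone when it occurred once, or, for a window across an exon junction, nowhere as an unbroken stretch. A GENCODE transcript was at hand for 84 members, all except Rpl41. Their median was 38.9% of windows found at the gene alone, against 98.9% over 20147 coding genes. Under 50% were 52 of the 84 members (61.9%), against 5.10% of all coding genes, and the large and small subunit had similar medians of 37.8% and 39.0%. With windows of 36 and 75 bases the median of members was 31.9% and 49.0%. Other loci that held at least 50 windows of a member numbered 810 over 80 members, with a median of 5 per member, and 318 of them overlapped annotated pseudogenes. Rpl7l1 alone gave 165 of the 810 loci, of which 5 overlapped annotated pseudogenes, although 84.9% of its windows were found at the gene alone. A window across an exon junction occurred elsewhere as an unbroken stretch for 82 members, which is what a copy made from a spliced mRNA leaves.

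The stretches below show such junctions for 2 genes listed at 0 in every library (Rps29, Rpl26), for 2 abundant genes whose junction has copies (Rps6, Rpl10) and for 2 abundant genes whose junction has no copy (Rpl8, Rpl4). Each is the 50 coding bases across the junction nearest the middle of the coding sequence, 25 from each exon, read from mm9 on the coding strand, and the capitals mark the last base of one exon and the first base of the next.
Rps29, exons 1 and 2: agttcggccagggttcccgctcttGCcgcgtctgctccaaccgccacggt
Rpl26, exons 2 and 3: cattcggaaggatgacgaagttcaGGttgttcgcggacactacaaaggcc
Rps6, exons 3 and 4: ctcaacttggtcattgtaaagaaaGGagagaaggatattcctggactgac
Rpl10, exons 5 and 6: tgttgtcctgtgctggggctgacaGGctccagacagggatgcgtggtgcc
Rpl8, exons 3 and 4: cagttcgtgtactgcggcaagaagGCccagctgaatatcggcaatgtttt
Rpl4, exons 6 and 7: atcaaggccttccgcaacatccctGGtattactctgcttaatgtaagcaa
The Rps29 stretch (chr12:70259984-70260008 and chr12:70259723-70259747, reverse strand) and the Rpl26 stretch (chr11:68715920-68715944 and chr11:68716681-68716705, forward strand) each occurred unbroken at 2 other places, such as chr2:172335105-172335154 for Rps29. The Rps6 stretch (chr4:86502050-86502074 and chr4:86501893-86501917, reverse strand) occurred at 4 places and the Rpl10 stretch (chrX:71517632-71517656 and chrX:71518011-71518035, forward strand) at 6. The Rpl8 stretch (chr15:76735086-76735110 and chr15:76735248-76735272, forward strand) and the Rpl4 stretch (chr9:64024853-64024877 and chr9:64025128-64025152, forward strand) occurred at 0 places.

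Genes at 0 and abundant genes were both found among members with copies. Rps6 had 5.31% of its windows at the gene alone and 14 other loci, and Rpl10 5.73% and 10 other loci, yet both were among the 8 highest members. Rps23, with 10.8% and 11 other loci, was listed at 0. Rps21 had 53.3% of its windows at the gene alone and Rpl3l and Rpl39l had 98.7% and 99.0%, and these too were listed at 0. In the pairs whose paralog was listed higher, Rps27 had 0.338% of windows at the gene alone and Rps27l 72.4%. Rpl36a had 6.91% and Rpl36al 30.0%. The part of these shares in the order within the pairs was not tested. Across the 84 members the Spearman correlation of the share of windows at the gene alone with RPKM was 0.00 with overexpression, 0.03 with knockdown and 0.03 in the control, a description over genes that share their libraries. RPKM was also divided by the share, for members above 0 with at least 10% of windows at the gene alone. In the control the standard deviation of log2 values over 62 members was 2.27 before and 2.30 after. Members at 0 were left out, and how reads with several matches were counted is not given. The part of such reads in the levels was therefore not tested by this division.

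**Figure D2:**
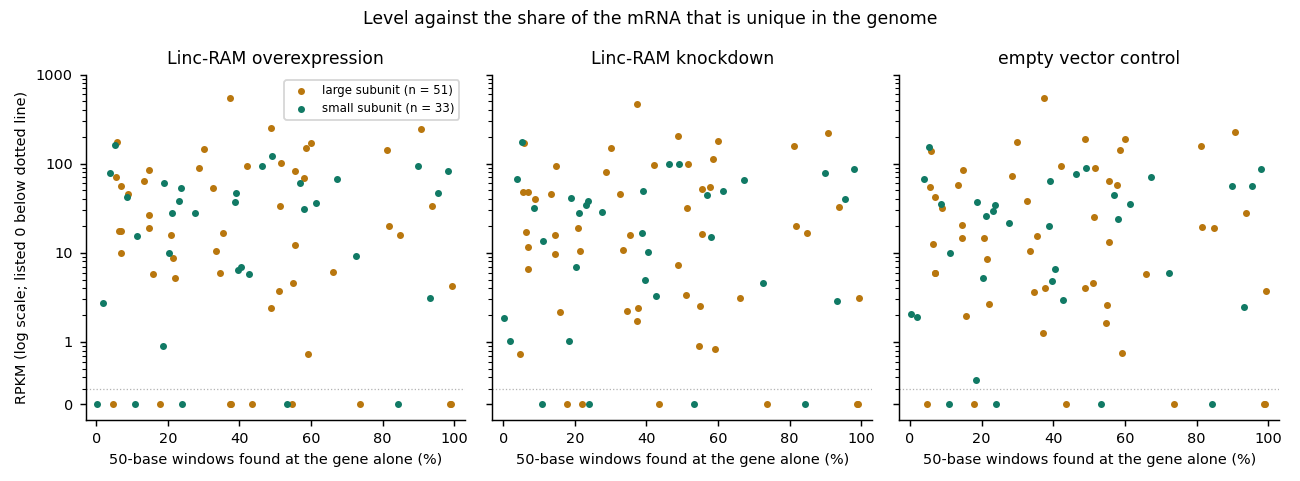
RPKM (vertical, log scale, values listed as 0 below the dotted line) against the percentage of 50-base windows found at the gene alone (horizontal) for 51 large and 33 small subunit genes in the overexpression, knockdown and control library. High and low values occur at small and at large shares, with Spearman correlations of 0.00, 0.03 and 0.03, and the 9 genes at 0 in every library all have over 10% of windows at the gene alone.

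The annotated start sites were searched for the pyrimidine tract of the family in the RefSeq promoters of GRCm38.p6, which held 63 of the 85 members. A C at the start followed by at least 4 bases that are C or T was found for 13 of these (20.6%), with 7 of 40 large and 6 of 23 small subunit genes, against 3.01% of all 27025 promoters and 0 of 67 mitochondrial ribosomal protein genes. Allowing for inexact starts, a run of at least 7 such bases that begins with C, on the transcribed strand and within 20 bases either side of the start, was found for 35 members (55.6%), against 21.4% of all promoters and 20.9% of those of mitochondrial ribosomal proteins. A match of letters is a description and not a measured start.

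Ratios between lines were taken over genes with a mean of at least 1 RPKM in the 3 libraries, which kept 71 of the 85 members, 43 of the large and 28 of the small subunit. A gene was called at 2-fold, the criterion of the study's methods, and the intervals below are exact 95% intervals from recovered reads that cover counting error of these libraries only. The filter leaves out 14 members, among them the 9 at 0 throughout.

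With Linc-RAM overexpression most ribosomal protein genes stood slightly above the control. Above a ratio of 1 were 55 of 71 members (77.5%), against 50.4% of all genes compared. The median log2 ratio of members was 0.29, or 1.22-fold, with quartiles of 0.05 and 0.47, against a median of 0.00 over all genes. This median was 0.19 when the 75th percentiles of the libraries were set equal, and 0.089 over the 25 members with at least 50% of windows at the gene alone, a choice made after seeing the data. In RNA of whole cultures, more mRNA per cell and a changed mix of cells cannot be told apart. The summed member reads gave a ratio of 1.12 (1.09 to 1.14), or 1.10 (1.07 to 1.14) without Rpl41, and all genes compared gave 1.04. Among genes with a mean of at least 5 RPKM, 46 of 58 members (79.3%) and 49.7% of all genes were above the control.

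Most members differed from the control by less than 1.5-fold, as did most genes compared. At 2-fold, 2 members were higher (3.64% of all genes compared) and 2 were lower (3.47%), and at 1.5-fold 14 were higher (10.6% of all genes) and 3 lower (9.52%). The counting interval lay above 1 for 17 of 71 members (23.9%, against 9.30% of all genes) and below 1 for 3 (against 8.56%). The 17 were Rpl3, Rpl5, Rpl6, Rpl7, Rpl10, Rpl19, Rpl36a, Rpl41, Rplp0, Rps2, Rps9, Rps10, Rps15, Rps16, Rps20, Rps26 and Rpsa, and the 3 were Rpl15, Rps3 and Rps19.

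Rpl36a had 17.5 RPKM (12 reads) with overexpression and 5.98 RPKM (10 reads) in the control, a ratio of 2.92 (1.16 to 7.56). Rpl28 had 5.75 RPKM (6 reads) and 1.96 RPKM (5 reads) in these libraries, with a ratio of 2.92 (0.744 to 12.1) whose interval includes 1. The 2 members called lower, Rplp2 and Rps27, were those listed at 0 with overexpression and at 3.98 and 2.03 RPKM (9 and 6 reads) in the control. The reads recovered for these genes are lower estimates, since no annotated length served for them.

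At a mean of at least 5 RPKM the highest ratios after Rpl36a were those of Rps2 and Rps26, both of the small subunit. Rps26, at the exit of the mRNA channel, had 37.1 RPKM with overexpression and 20.01 RPKM in the control, a ratio of 1.85 (1.16 to 2.94). Rps2, at the mRNA entry, had 9.98 and 5.27 RPKM in these libraries, a ratio of 1.90 (1.02 to 3.48). Rplp0 had the largest number of reads among genes whose interval lay above 1 apart from Rpl41, with 251 RPKM (718 reads) with overexpression and 190 RPKM (1323 reads) in the control, a ratio of 1.32 (1.21 to 1.45). Rpl41 itself had a ratio of 1.16 (1.10 to 1.22).

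At a mean of at least 5 RPKM the lowest ratios with overexpression belonged to Rps19, Rps3 and Rpl7l1. Rps19, whose loss of function in humans causes Diamond-Blackfan anaemia, had 46.8 RPKM with overexpression and 64.5 RPKM in the control, a ratio of 0.726 (0.538 to 0.969). Rps3, a protein of the mRNA entry, had 46.3 and 56.4 RPKM, a ratio of 0.821 (0.691 to 0.973). Rpl7l1 had a ratio of 0.838 (0.649 to 1.07).

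Set apart by subunit, the median log2 ratio for overexpression over control was 0.19 for 42 large and 0.38 for 27 small subunit genes above 0 in both libraries. Above a ratio of 1 were 32 of 43 large (74.4%) and 23 of 28 small subunit genes (82.1%). The difference of the medians, large minus small, was -0.19 and was not tested. Summed reads gave 1.10 (1.07 to 1.13) for the large and 1.16 (1.10 to 1.23) for the small subunit, whose intervals overlap.

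With Linc-RAM knockdown the members as a group stayed at the level of the control. Above a ratio of 1 were 41 of 71 members (57.7%), against 48.4% of all genes compared, and the median log2 ratio was 0.03 against -0.01 over all genes. The summed member reads gave a ratio of 0.997 (0.971 to 1.02), or 1.02 (0.989 to 1.05) without Rpl41, and all genes compared gave 1.02. At 2-fold 0 members were higher (3.38% of all genes) and 1 was lower (4.19%), and at 1.5-fold 3 were higher (10.5%) and 7 lower (12.1%). The counting interval lay above 1 for 6 members (8.93% of all genes), namely Rpl5, Rpl7a, Rpl10, Rps20, Rps24 and Rpsa, and below 1 for 3 (10.4%), namely Rpl41, Rplp1 and Rps3.

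The member called lower was Rpl38, listed at 0 with knockdown and at 2.64 RPKM (5 reads) in the control. Rpl7a lay just inside 2-fold, with 11.7 RPKM (19 reads) with knockdown and 5.87 RPKM (26 reads) in the control, a ratio of 2.00 (1.04 to 3.75). At a mean of at least 5 RPKM the next highest ratios were those of Rps25, at 10.1 and 6.55 RPKM with a ratio of 1.54 (0.718 to 3.18), and Rps24, at 49.3 and 35.0 RPKM with a ratio of 1.41 (1.06 to 1.85). The interval of Rps25 includes 1 and that of Rps24 does not.

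The lowest ratios at a mean of at least 5 RPKM were those of Rps14, Rpl17 and Rps3. Rps14, whose partial loss in humans is tied to the anaemia of 5q deletion, had 15.2 RPKM (17 reads) with knockdown and 23.8 RPKM (73 reads) in the control, a ratio of 0.636 (0.352 to 1.09). Rpl17 had 9.62 and 14.8 RPKM, a ratio of 0.648 (0.334 to 1.18). Rps3 had 40.5 RPKM (143 reads) and 56.4 RPKM (543 reads), a ratio of 0.719 (0.594 to 0.866), so that of these genes Rps3 had an interval below 1. The same control library, in which Rps3 had 543 reads, enters its ratio for overexpression given above.

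By subunit the median log2 ratio for knockdown over control was 0.02 for 42 large and 0.13 for 28 small subunit genes. Above a ratio of 1 were 23 of 43 large (53.5%) and 18 of 28 small subunit genes (64.3%). The difference of the medians was -0.11, likewise not tested. Summed reads gave 0.976 (0.947 to 1.01) for the large and 1.08 (1.02 to 1.15) for the small subunit. These intervals do not overlap, but Rpl41 gave 1497 of the 5916 large subunit reads in the knockdown library and 4468 of 16565 in the control. Without Rpl41, a choice made after seeing the data, the large subunit ratio was 0.998 (0.964 to 1.03), which overlaps that of the small subunit.

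**Figure D3:**
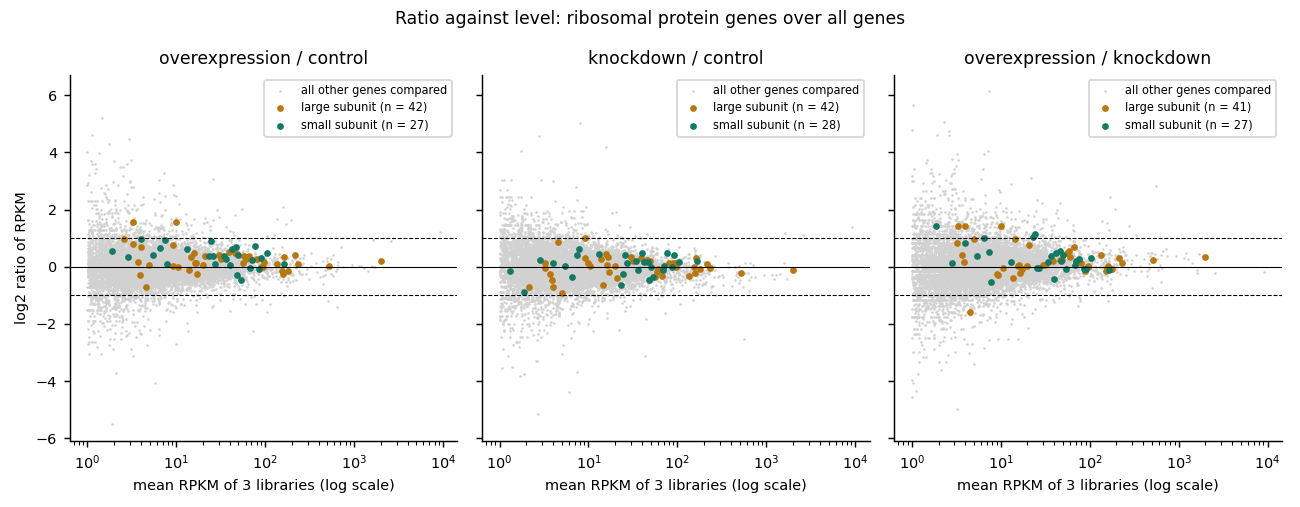
Log2 ratio of RPKM (vertical) against the mean RPKM of the 3 libraries (horizontal, log scale) for large subunit genes, small subunit genes and all other genes compared (grey), with dashed lines at 2-fold; genes at 0 in either library are not drawn. For overexpression over control most members lie above 0 (median 0.29), for knockdown over control they lie on both sides (median 0.03), and for overexpression over knockdown the median is 0.18.

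Overexpression was also set directly against knockdown. The ratio does not use the control library, though the filter takes the mean over all 3 libraries. Above a ratio of 1 were 48 of 70 members (68.6%), against 52.1% of all genes compared, with a median log2 ratio of 0.18 against 0.02. Genes at 0 in the second library of a ratio have no ratio and are left out, here Rpl38 with 5.15 RPKM with overexpression and 0 with knockdown, while genes at 0 in the first library count as lower. At 2-fold 7 members were higher with overexpression (5.83% of all genes) and 3 lower (5.11%), and at 1.5-fold 13 were higher (14.3%) and 3 lower (12.6%). The counting interval lay above 1 for 10 members (9.61% of all genes), namely Rpl13, Rpl17, Rpl23a, Rpl35, Rpl39, Rpl41, Rplp0, Rplp1, Rps14 and Rps26, and below 1 for 0 (8.14% of all genes).

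Of the 7 called higher with overexpression, Rps14 and Rps26 had intervals above 1. Rps26 had 37.1 RPKM (35 reads) with overexpression and 16.6 RPKM (14 reads) with knockdown, a ratio of 2.23 (1.17 to 4.49). Rps14 had 31.0 RPKM (39 reads) and 15.2 RPKM (17 reads), a ratio of 2.05 (1.13 to 3.86). The other 5 were Rpl22l1, Rpl28, Rpl36a, Rps12 and Rps27l, each with at most 4 recovered reads (a lower estimate) in the knockdown library and an interval that includes 1. Of the 3 called lower, Rplp2 and Rps27 were at 0 with overexpression, and Rpl37a had 2.42 RPKM (3 reads) with overexpression and 7.24 RPKM (8 reads) with knockdown. At a mean of at least 5 RPKM the lowest ratios were those of Rps25, at 0.686 (0.269 to 1.69), Rps24, at 0.738 (0.526 to 1.03), and Rpl23, at 0.753 (0.434 to 1.30), none of which has an interval below 1. The medians by subunit were 0.14 for large and 0.21 for small subunit genes, a difference of -0.07.

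Ratios to the control were also set out by the share of the mRNA found at the gene alone. For overexpression over control, 37 of 45 members with under 50% of windows at the gene alone were above 1, with a median log2 ratio of 0.36, against 17 of 25 members with at least 50%, with a median of 0.09. For knockdown over control, 31 of 45 members under 50% were above 1 with a median of 0.13, against 10 of 25 with at least 50% and a median of -0.04. Other coding genes under 50% showed a smaller difference of the same sign: 61.4% of 329 were above the control with overexpression (median 0.09) and 55.9% with knockdown (median 0.09), against 49.8% and 48.0% of 9563 genes with at least 50%. Among small subunit genes the medians for overexpression over control lay closer together, at 0.39 for under 50% and 0.35 for at least 50%, and among large subunit genes they were 0.36 and 0.09. For overexpression over knockdown the shares above 1 had the other order, at 63.6% of 44 members under 50% and 76.0% of 25 with at least 50%, with medians of 0.20 and 0.12. At 2-fold, 0 of the 25 members with at least 50% were called in either comparison with the control. Of the 9563 other coding genes with at least 50%, 341 were 2-fold higher and 326 lower with overexpression. With knockdown 314 of them were higher and 398 lower. The part of reads with several matches in the level of these genes was not tested.

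**Figure D4:**
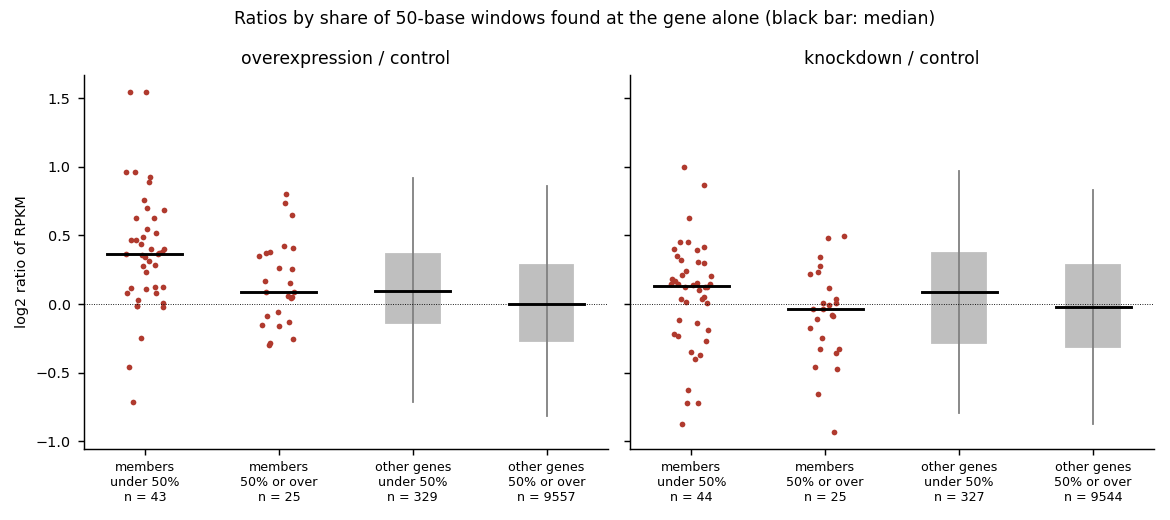
Log2 ratio of RPKM (vertical) for overexpression over control (left) and knockdown over control (right), for members and other coding genes with under 50% or at least 50% of 50-base windows found at the gene alone; points are genes, grey boxes span the quartiles and grey lines the central 90% of other genes, and black bars are medians. Member medians are 0.36 and 0.09 on the left and 0.13 and -0.04 on the right.

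Ribosomal proteins that carry other symbols were looked at beside the members. Fau, a fusion of a ubiquitin-like protein with a small subunit protein, had 65.3 RPKM with overexpression, 62.7 with knockdown and 57.6 in the control. Gnb2l1, which encodes the small subunit scaffold RACK1, had 200.4, 160.1 and 236 RPKM in these libraries, with 529, 377 and 1517 reads. Of 3 further entries named as copies of members, Rpl34-ps1 and Rplp2-ps1 were listed at 0 and Rps19-ps3 had 7.80 RPKM with overexpression, 6.25 with knockdown and 5.95 in the control.

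Other genes of protein synthesis were described in the same way from lists chosen by known function. Of the cytosolic translation factors and other genes with pyrimidine tract mRNAs, 29 of 30 passed the filter. With overexpression 22 of these were above the control (median log2 ratio 0.13), 1 at 2-fold, and with knockdown 18 were above it (median 0.12), 0 at 2-fold. The most abundant was the elongation factor Eef1a1, at 1569.5 RPKM with overexpression, 1689 with knockdown and 1531 in the control, followed by Eef2 at 665, 546 and 503 RPKM. Of 39 ribosome assembly genes that passed, 24 were above the control with overexpression (median 0.08, 2 at 2-fold) and 13 with knockdown (median -0.17, 1 higher and 0 lower at 2-fold). The nucleolar protein Ncl was the highest of them, at 31.1, 34.3 and 29.5 RPKM.

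Mitochondrial ribosomal proteins, which build a separate ribosome, were looked at within the same libraries. Of 76 in the files 72 passed the filter and 0 were at 0 in every library, and their median was 98.5% of windows at the gene alone. With overexpression 40 of 72 were above the control (median 0.04) and 33 with knockdown (median -0.11), with 1 higher and 2 lower at 2-fold for overexpression and 1 higher and 3 lower for knockdown. Their median level was 9.09 RPKM with overexpression, 9.10 with knockdown and 9.76 in the control, below that of the cytosolic members. Of 18 abundant reference genes that passed, such as the cytoskeletal genes Vim and Actb, 9 were above the control with overexpression (median -0.01) and 6 with knockdown (median -0.24). The members' median of 0.29 with overexpression is set beside 0.13, 0.08, 0.04 and -0.01 for these lists as a description of these libraries. In the same order the lists had median shares of windows at the gene alone of 79.3%, 98.1%, 98.5% and 70.1%, against 38.9% for members. The 25 members with at least 50% of windows at the gene alone had a median log2 ratio of 0.089. The differences between lists were not tested.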

How the data were processed

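The authors aligned 3 polyA libraries against mm9 by TopHat with default parameters, given as 1.4.1 by the submitters' notes, took read coverage per gene with DEGSeq and deposited RPKM values. For the gene annotation and for the counting of reads with several matches the sources used here name no method. Read totals and reads per gene were recovered as the totals and lengths at which RPKM gave whole reads. For 14 members an annotated length served; for 62 the smallest whole length from 200 nt was used, so their reads are at or below the true number and their intervals at or above the true width. Ratios used the deposited values, without pseudocount; a gene at 0 in the first library counted as lower. Intervals are Clopper-Pearson. No p-value is given because each group has 1 library. Members and lists were chosen with earlier results of these data known. Named were members at 0, the 8 highest, those past 2-fold, the 3 largest and the 3 smallest ratios of a comparison where the mean was at least 5 RPKM, and paralog pairs; members with an interval beside 1, Rps15, Rps18 and the members given only with window shares were added after their values were seen. One GENCODE transcript per gene was used. Alternatives were no filter or 5 RPKM, 1 or 0.1 RPKM added, 2 other scalings, 1.5-fold and leaving out paralogs; a further one, on windows, and the paralog alternative for levels were chosen after seeing the data. The results for 2 genes and 1 sequence are not reported here. Steps were tested on simulated data. Versions were numba 0.67.0, scipy 1.17.1, matplotlib 3.10.9, pandas 2.3.3 and numpy 2.4.6 under Python 3.11.15.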

Additional observations from a re-analysis of the deposited data

How the results depend on the processing

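Over all alternatives 78 values stayed close to those reported and 30 moved, and none of the medians for overexpression over control changed sign. With no filter on low values, 4 members were 2-fold lower for overexpression over control and 6 for overexpression over knockdown, and 1 was higher for knockdown over control. For this setting no share of all genes is given. At a mean of at least 5 RPKM, 1 of 58 members was 2-fold higher and 0 lower for overexpression over control. For knockdown over control 0 were lower (median 0.077), and for overexpression over knockdown 4 were higher and 0 lower. Of all 5897 genes at this level, 101 were 2-fold higher and 72 lower for overexpression over control. For knockdown over control 76 of them were higher and 108 lower. For overexpression over knockdown 201 of 5896 genes were higher, and fewer were lower. Setting the 75th percentiles equal gave medians of 0.19 for overexpression over control and -0.033 for knockdown over control, since this scaling shifts log2 ratios by -0.10 and -0.07. Setting the median ratio of all genes to 1 put 1 member (Rpl7a) at 2-fold higher for knockdown over control. At 1.5-fold, 14 members were higher for overexpression over control, 3 higher and 7 lower for knockdown over control, and 13 higher for overexpression over knockdown. Without paralogs the knockdown over control median was 0.077, 6 members were at 0 with knockdown and 6 in the control, and median levels were 27.8 RPKM with overexpression, 19.9 with knockdown and 21.4 in the control. Over members with at least 50% of windows at the gene alone, an alternative chosen after seeing the data, 0 were 2-fold higher and 0 lower for overexpression over control (median 0.089), 0 lower for knockdown over control (median -0.036), and 2 higher and 0 lower for overexpression over knockdown (median 0.12). Counts of other coding genes with at least 50% are given above for the comparisons with the control. For overexpression over knockdown 545 of 9547 such genes were higher and 478 lower. No paired analysis was possible because each group has 1 library. Depth limits the low members most: 21 of 85 had under 10 reads in the control.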
